A study of Mus musculus with 4 samples.

Results

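The genes described here encode enzymes of cholesterol and fatty acid synthesis and the proteins that regulate them, read in mouse embryonic fibroblasts with and without podoplanin. They were taken by name: 30 genes were listed, and a gene was measured through the probe set that carried its symbol alone in the platform annotation, the brightest such set where there were several. By that rule 28 of the 30 were measured, among 19751 genes in all. The other two were Acsl3, whose probe set is shared with Utp14b, so that its level is not given, and Acat2, which only the deposited description of its probe set names and which is reported apart from the counts. Counts and medians over the list are descriptions, given beside the same over all genes, and the list as a whole was not tested.

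The cells were fibroblasts grown from WT and Pdpn-/- (Pdpn KO) embryos of strain C57BL6/J, collected between E9.5 and E13.5. They were kept for 7 to 10 days in medium with 10% fetal calf serum and then cleared of endothelial and blood cells with antibodies to CD31 and CD45, per the labels. No treatment was applied, and each genotype had 2 arrays, called biological replicates 1 and 2. The labels do not say how many embryos each culture came from or what cultures of the same number share. They also do not say whether the knockout allele was germline or how it was made. The p-values therefore measure only the spread between these arrays. In WT that spread may be technical. The 2 Pdpn KO arrays differed in sex-linked signal, as given below, so their spread is not technical alone.

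Mammalian cells make cholesterol from acetyl-CoA through mevalonate, the isoprenoid diphosphates, squalene and lanosterol, and make fatty acids from the same acetyl-CoA through malonyl-CoA. Both routes are controlled by sterol regulatory element-binding proteins (SREBPs), transcription factors held in the endoplasmic reticulum while sterols are plentiful and released to the nucleus when sterols fall. SREBP-2 acts mainly on the sterol genes and SREBP-1 mainly on the fatty acid genes, and serum lipoproteins are a source of sterol that lowers the need for synthesis in cultured fibroblasts.

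SREBPs bind sterol regulatory elements close to the start of their target genes, usually together with NF-Y, the factor of the CCAAT box. RefSeq promoter windows of the assembly GRCm38.p6, 250 bases before to 50 after a gene's start, were matched to 21 of the 28 measured genes, in 26 windows. The 250 bases before the start follow for a gene of each role, because the genes are known as targets of the same factors and are read here as a group. Capitals mark the core CACNCCA of the sterol regulatory element and the box CCAAT, on either strand, so that ATTGG is the box read from the opposite strand.
Hmgcs1, chr13:119690101-119690350, plus strand: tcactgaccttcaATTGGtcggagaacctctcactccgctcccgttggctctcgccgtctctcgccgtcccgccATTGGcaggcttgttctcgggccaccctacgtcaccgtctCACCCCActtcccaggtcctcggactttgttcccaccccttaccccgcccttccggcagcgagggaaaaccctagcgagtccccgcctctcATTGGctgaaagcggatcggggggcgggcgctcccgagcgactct
Hsd17b7, chr1:169969206-169969455, minus strand: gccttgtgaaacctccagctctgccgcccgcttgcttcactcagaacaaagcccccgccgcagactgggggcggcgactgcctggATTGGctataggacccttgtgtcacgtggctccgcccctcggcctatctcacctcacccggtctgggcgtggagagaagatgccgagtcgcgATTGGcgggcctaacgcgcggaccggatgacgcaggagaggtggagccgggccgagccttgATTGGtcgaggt
Srebf2, chr15:82147019-82147268, plus strand: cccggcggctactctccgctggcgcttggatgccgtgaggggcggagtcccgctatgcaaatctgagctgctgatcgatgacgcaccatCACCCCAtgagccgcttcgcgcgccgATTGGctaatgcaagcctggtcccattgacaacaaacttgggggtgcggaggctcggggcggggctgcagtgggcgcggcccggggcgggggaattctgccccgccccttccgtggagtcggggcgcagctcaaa
Fasn, chr11:120824548-120824797, minus strand: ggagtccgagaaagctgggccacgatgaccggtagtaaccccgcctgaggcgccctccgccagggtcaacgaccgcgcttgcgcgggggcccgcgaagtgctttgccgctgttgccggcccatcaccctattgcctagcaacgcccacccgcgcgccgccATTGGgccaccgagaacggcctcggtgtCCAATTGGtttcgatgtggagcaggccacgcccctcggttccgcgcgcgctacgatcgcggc
The core CACNCCA stood in the windows of Hmgcs1 and Srebf2 shown here but not in those of Hsd17b7 and Fasn. In Fasn, a CCAAT box and its mirror on the opposite strand overlap in the last capital stretch. Over all 26 windows of the measured genes, 19 (73.1%) held CCAAT, compared with 37.4% of the 32851 windows in the RefSeq table. The core CACNCCA was in 4 of the 26 (15.4%), compared with 18.4% of all windows. Each of those 4 also held CCAAT, as most windows of the measured genes did, and 6.76% of all windows held both. The table also holds windows of non-coding genes, and a match of letters is not evidence of binding.

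Values are RMA intensities on a linear scale, and log2 was taken for differences. Probe sets respond with different strength, so levels are compared between arrays and not between genes. In RNA of a whole culture, fewer cells of a type and less RNA per cell cannot be told apart. Pdpn itself read 4486 and 3106 in WT against 179 and 201 in Pdpn KO, with a limma adjusted p of 0.00501, in the direction the genotype labels give. All samples are labelled female, but both WT arrays and Pdpn KO replicate 1 read 1474 to 1673 for the Y-linked gene Eif2s3y and 48.6 to 57.4 for Xist, the RNA of the inactive X chromosome, whereas Pdpn KO replicate 2 read 35.1 and 1831. That pattern goes against the label in 3 of the 4 arrays. Median intensities lay between 283 and 290, but the upper quartile was 1027 and 1059 in the replicate 1 arrays of WT and Pdpn KO and 966 and 995 in the replicate 2 arrays. Fibroblast markers fixed as a list had summed intensities of 36649 and 44852 in WT against 36717 and 44033 in Pdpn KO, for 9 of 9 genes.

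No difference between Pdpn KO and WT passed the test for any of the 28 sterol and fatty acid synthesis genes. In limma, with adjustment over all 19751 genes, 0 of the 28 passed an adjusted p of 0.05, compared with 0.0101% of all genes, and 0 had an unadjusted p under 0.05, compared with 2.01% of all genes. The smallest unadjusted p in limma was 0.306, for Srebf2, and every member had an adjusted p of 1.00. The log2 differences ran from -0.17 for Hsd17b7 to 0.11 for Dhcr7, 12 of them above 0 and 16 below, and their median was -0.02 compared with 0.00 over all genes. The median size of a difference, 0.07 on the log2 scale, was the same as over all genes.

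The intervals give the differences that the spread between these arrays leaves room for. The 95% intervals of the 28 differences all lay between -0.69 and 0.49 on the log2 scale, so a 2-fold change in either direction was outside every one of them. For 26 of the 28 a 1.5-fold change was outside as well, and the exceptions were Hsd17b7 and Fasn, both on the lower side. These intervals are for each gene alone and use limma's shared estimate of the spread, which rests on 2 arrays per genotype. The WT spread may be technical, and the Pdpn KO arrays differed in sex-linked signal. The intervals may thus be too narrow to bound an effect of the knockout.

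**Figure D1:**
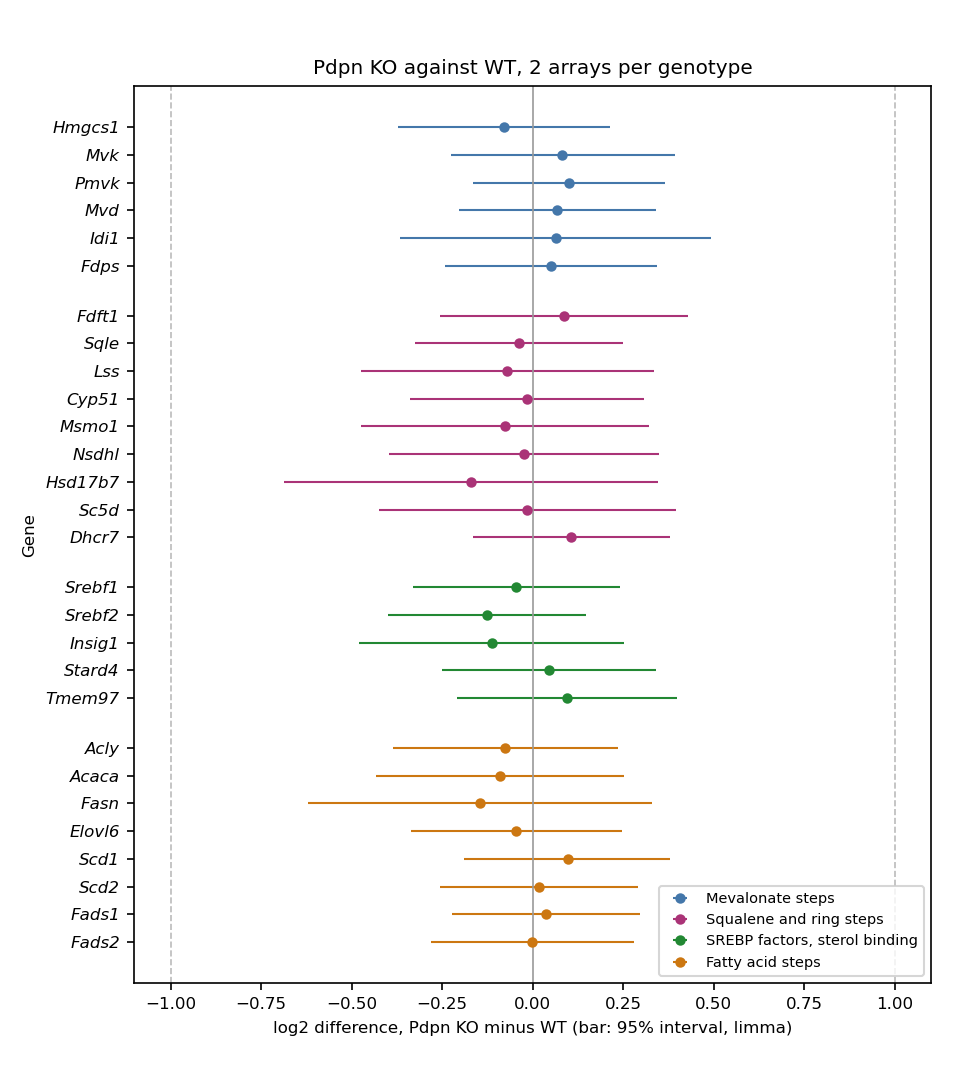
Log2 difference between Pdpn KO and WT for the 28 genes, grouped by role, with points for the difference of the means of 2 arrays per genotype and bars for the limma 95% interval; dashed lines mark 2-fold. All intervals cross 0 and lie between -0.69 and 0.49.

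The first steps join acetyl-CoA units and carry them to farnesyl diphosphate, and of their 6 measured genes 5 had a higher and 1 a lower mean in Pdpn KO, with a median log2 difference of 0.07. Hmgcs1, the synthase that makes HMG-CoA, read 1733 and 1690 in WT against 1735 and 1514 in Pdpn KO, a log2 difference of -0.08 ± 0.12 (SE, n = 2 per genotype). Idi1, the isomerase that interconverts the isoprenoid diphosphates, read 1668 and 1436 in WT against 1895 and 1381 in Pdpn KO, a difference of 0.06 ± 0.18. For both genes Pdpn KO replicate 2 was the lowest array, and for Idi1 the Pdpn KO arrays lay on either side of both WT arrays. The second, dimmer Idi1 probe set read 898 and 588 in WT against 857 and 776 in Pdpn KO, where WT replicate 2 and not Pdpn KO replicate 2 was lowest.

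Pmvk, the kinase that adds the next phosphate to phosphomevalonate, was the only member of these steps whose genotypes did not overlap. It read 214 and 227 in WT against 237 and 235 in Pdpn KO, a difference of 0.10 ± 0.11. Mvk, the kinase that first phosphorylates mevalonate, read 1293 and 1181 in WT against 1408 and 1216 in Pdpn KO. Mvd, the decarboxylase that follows, read 815 and 779 in WT against 864 and 807 in Pdpn KO, and Fdps, which makes farnesyl diphosphate, 3012 and 2736 against 3120 and 2829. In each of Mvk, Mvd and Fdps, the array numbered 1 was above that numbered 2 in both genotypes, and Pdpn KO replicate 1 was the highest of the 4. Acat2, which makes acetoacetyl-CoA in the cytosol and stands outside the 28, read 1503 and 1451 in WT against 1521 and 1304 in Pdpn KO, a difference of -0.07 ± 0.12 (limma adjusted p = 1.00 among the probe sets not used for a gene).

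The next steps make squalene, close it into lanosterol and trim the ring to cholesterol. Of their 9 measured genes, 2 had a higher and 7 a lower mean in Pdpn KO, with a median log2 difference of -0.02, and 8 of the 9 had their lowest value in Pdpn KO replicate 2. Hsd17b7, which reduces the 3-keto group during demethylation of the ring, read 2264 and 1977 in WT against 2337 and 1510 in Pdpn KO, a difference of -0.17 ± 0.21. The Pdpn KO arrays thus held both its highest and its lowest value, and its difference was 0.14 with Pdpn KO replicate 2 left out and -0.49 with Pdpn KO replicate 1 left out, where limma gave an unadjusted p of 0.0148 and an adjusted p of 0.65. That fit leaves 1 Pdpn KO array, assumed to vary like the WT arrays, so its p takes no account of the spread between the Pdpn KO arrays.

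Lss, the cyclase that makes lanosterol, read 1171 and 1004 in WT against 1188 and 898 in Pdpn KO, a difference of -0.07 ± 0.17. Nsdhl, an X-linked dehydrogenase of ring demethylation, read 2992 and 2903 in WT against 3319 and 2527 in Pdpn KO, with -0.03 ± 0.15. In Lss and Nsdhl, as in Hsd17b7, Pdpn KO replicate 1 was the highest and Pdpn KO replicate 2 the lowest array. Cyp51, the lanosterol demethylase, had the same order, with 1198 and 1156 in WT against 1281 and 1058 in Pdpn KO. Sc5d, the desaturase near the end of the route, also had this order, with 2381 and 1924 in WT against 2396 and 1873 in Pdpn KO. In Sc5d, as in Lss, Nsdhl and Cyp51, the replicate numbers of each genotype lay further apart than the genotype means.

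Msmo1, the sterol methyl oxidase, read 3964 and 3105 in WT against 3659 and 3024 in Pdpn KO. Sqle, the squalene epoxidase that is a control point of the route, read 1693 and 1520 in WT against 1616 and 1510 in Pdpn KO, a difference of -0.04 ± 0.12. In both, the values again ordered by replicate number within each genotype. Fdft1, squalene synthase, read 3812 and 3543 in WT against 4350 and 3499 in Pdpn KO, but the description of this probe set also names Ctsb, the protease cathepsin B. Its dimmer probe set, described for Fdft1 alone, read 3388 and 3440 in WT against 3935 and 3259 in Pdpn KO, with a difference of 0.07 ± 0.13 compared with 0.09 ± 0.14 for the brighter one.

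Dhcr7, the reductase of the last step, was the exception among the ring enzymes. It read 674 and 707 in WT against 718 and 768 in Pdpn KO, a difference of 0.11 ± 0.11, with both Pdpn KO arrays above both WT arrays and the replicate 2 array the higher in each genotype.

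Among the factors and sterol-binding proteins, 2 of 5 had a higher and 3 a lower mean in Pdpn KO, and Srebf2 had the smallest p of the 28 genes. Srebf2, which encodes SREBP-2, read 2251 and 2060 in WT against 1995 and 1951 in Pdpn KO, a difference of -0.13 ± 0.11 with a 95% interval from -0.40 to 0.15. Both Pdpn KO arrays lay below both WT arrays. The difference therefore could not change sign with an array left out, and it ran from -0.19 to -0.06. In all, 1 of the 28 genes had both Pdpn KO arrays below WT, compared with 9.74% of all genes, and 3 (Pmvk, Dhcr7 and Fads1) had both above, compared with 14.6% of all genes; the genotypes overlapped in the other 24. These shares are no higher than the background.

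Srebf1, which encodes SREBP-1, read 963 and 864 in WT against 908 and 860 in Pdpn KO, with -0.05 ± 0.12. Insig1, a sterol-sensitive anchor that retains SREBPs in the endoplasmic reticulum and is itself their target, read 2388 and 1917 in WT against 2131 and 1835 in Pdpn KO, with -0.11 ± 0.15. For both genes WT replicate 1 stood above the other arrays. Stard4, a cytosolic sterol carrier, read 542 and 541 in WT against 519 and 601 in Pdpn KO. Tmem97, a sterol-responsive membrane protein also known as the sigma-2 receptor, read 5301 and 5830 in WT against 5569 and 6329 in Pdpn KO, and in it the replicate 2 arrays were the higher ones. Its second probe set gave the same order of the 4 arrays, from 2124 in WT replicate 1 to 2490 in Pdpn KO replicate 2.

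Of the 8 measured genes of fatty acid synthesis, 3 means were higher and 5 lower in Pdpn KO, with a median log2 difference of -0.02. Fasn, the fatty acid synthase, read 4977 and 3549 in WT against 4258 and 3392 in Pdpn KO, a difference of -0.15 ± 0.20. The WT arrays alone spanned more than the distance between the genotype means. Acaca, the carboxylase that makes malonyl-CoA, read 1374 and 1114 in WT against 1218 and 1109 in Pdpn KO, and its dimmer probe set 801 and 589 in WT against 672 and 557 in Pdpn KO. Both probe sets placed WT replicate 1 highest and Pdpn KO replicate 2 lowest. Acly, which makes cytosolic acetyl-CoA from citrate, read 3105 and 2832 in WT against 3027 and 2616 in Pdpn KO, and Elovl6, which elongates palmitate, 2969 and 2733 in WT against 2908 and 2619 in Pdpn KO.

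Among the 4 desaturases the array farthest from the WT mean on the log2 scale was Pdpn KO replicate 1 for Scd1, at 0.16. Scd1 and Scd2 make monounsaturated fatty acids and lie in a cluster of similar genes, so probes could read relatives. Scd1 read 4290 and 4635 in WT against 4989 and 4552 in Pdpn KO, and Scd2 8918 and 9243 in WT against 9575 and 8811 in Pdpn KO. Fads1, the delta-5 desaturase of polyunsaturated fatty acids, read 4230 and 4231 in WT against 4321 and 4360 in Pdpn KO, a difference of 0.04 ± 0.11. Its genotypes did not overlap, but the gap between the nearest arrays was within the spread that limma assigns to such a gene. Fads2, the delta-6 desaturase, read 3826 and 4199 in WT against 3901 and 4115 in Pdpn KO, with overlapping values.

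**Figure D2:**
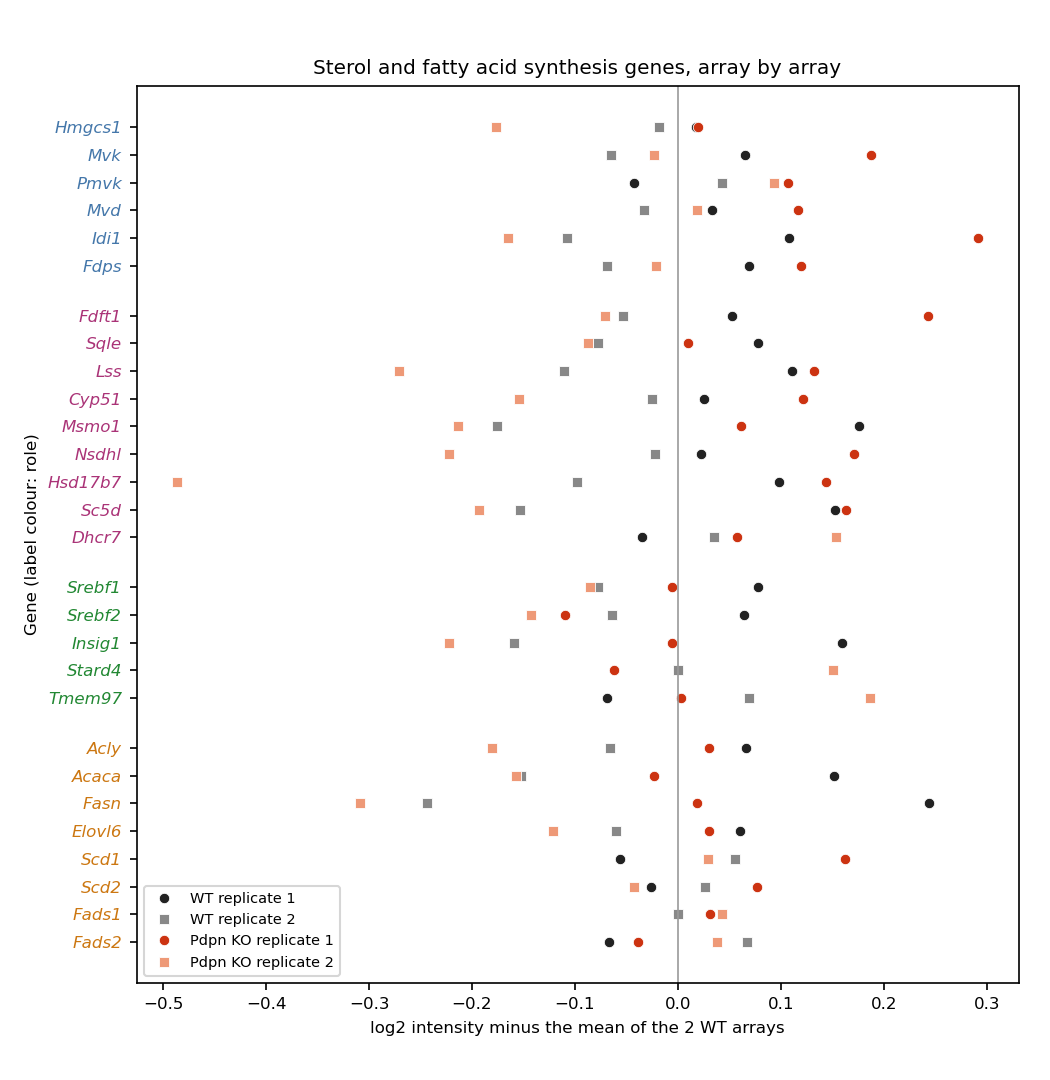
Log2 intensity of each of the 28 genes in each of the 4 arrays, relative to the mean of the 2 WT arrays, so that the WT points are mirror images. Squares (replicate 2) lie left of circles (replicate 1) in both genotypes for 20 of the 28 genes, and Pdpn KO replicate 2 is the lowest array for 18.

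Across arrays, these genes were ordered by replicate number more than by genotype. In 20 of the 28 genes replicate 2 was lower than replicate 1 in WT and also in Pdpn KO, compared with 32.4% of all genes. By more than 0.1 on the log2 scale in both genotypes it was lower in 13 of the 28, compared with 3343 of all 19751 genes. In 4 (Dhcr7, Tmem97, Fads1 and Fads2) it was higher in both, compared with 41.3% of all genes, though the WT difference of Fads1 rounded to 0.00. The median log2 difference of replicate 2 from replicate 1 was -0.12 in WT and -0.15 in Pdpn KO, with 0.02 and 0.03 over all genes. Fasn was lower in replicate 2 by the most in WT, with -0.49, and Hsd17b7 in Pdpn KO, with -0.63. With 1 array of each number in each genotype this is a description without a test, and what the numbers stand for is not given in the labels.

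The same order was common among bright genes. Of the 28 genes, 27 were in the brighter 50% of all genes, and among those brighter genes 51.0% were lower in replicate 2 in both genotypes, with a median difference of -0.07 in each genotype. The upper quartiles given above moved the same way. When the arrays were made equal by quantile normalization, the count was 16 of 28 compared with 29.9% of all genes, with medians of -0.06 in WT and -0.10 in Pdpn KO, and with median centring it was 20 of 28. The share among the brighter genes was not computed under either scaling. The summed fibroblast markers were higher in both replicate 2 arrays, as were 8 of the 9 genes, and the part of these levels in the order of the sterol genes was not tested.

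**Figure D3:**
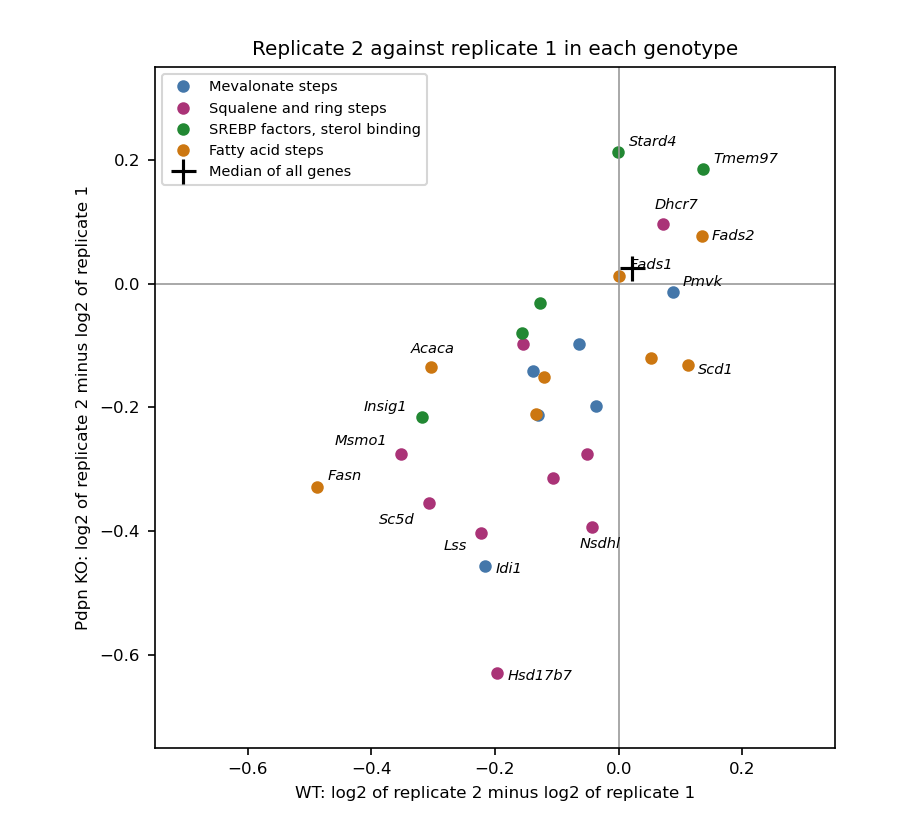
Difference of replicate 2 from replicate 1 on the log2 scale, in WT (horizontal) and Pdpn KO (vertical), for the 28 genes coloured by role; the cross is the median of all genes. In the lower left quadrant lie 20 of the 28 genes, and Dhcr7, Tmem97, Fads1 and Fads2 lie at the upper right.

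By role, the order held for 8 of the 9 squalene and ring genes, with medians of -0.16 in WT and -0.31 in Pdpn KO, for 5 of the 6 genes of the first steps, for 3 of the 5 factors and sterol-binding proteins and for 4 of the 8 fatty acid genes. In the latter, Fasn, Acaca, Acly and Elovl6, which build the chain, were lower in replicate 2 in both genotypes, while the 4 desaturases were not. The grouping into chain builders and desaturases was made after the values were seen, and no difference between roles was tested. Over the 28 genes the replicate differences in WT and Pdpn KO had a Pearson r of 0.60 and a Spearman rho of 0.65, and over all 19751 genes 0.58 and 0.60. The relation was therefore about as close in the other genes of these arrays.

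Pdpn KO replicate 2 was the lowest of the 4 arrays in 18 of the 28 genes, compared with 21.3% of all genes, and Pdpn KO replicate 1 the highest in 14 of the 28, compared with 25.6% of all genes. WT replicate 1 was lowest in 6 of the 28, compared with 28.6% of all genes, and highest in 9, compared with 20.6%. The count for Pdpn KO replicate 2 was 18 with median centring and 16 with quantile normalization, and that for Pdpn KO replicate 1 was 8 and 10. The shares of all genes under these scalings were not computed. From the WT mean, the median member stood at 0.06 in Pdpn KO replicate 1 and at -0.10 in Pdpn KO replicate 2, and the median squalene or ring gene at 0.13 and -0.19. The median difference between genotypes over the 28 genes was accordingly 0.06 with Pdpn KO replicate 2 left out and -0.10 with Pdpn KO replicate 1 left out. Pdpn KO replicate 2 is the array with the Xist signal, and sex pattern and replicate cannot be told apart in the Pdpn KO cells. Within WT, where both arrays had Y-linked signal, replicate 2 was lower in 21 of the 28, compared with 9092 of all 19751 genes. The part of sex in the order of the arrays was not tested.

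Other genes of the same pathways, listed by function, gave no call either. Of 58 such genes in 3 lists, 51 were measured, 0 passed an adjusted p of 0.05 and 1 had an unadjusted p under 0.05, a share near the 2.01% of all genes. That gene was Elovl7, an elongase of long-chain fatty acids, which read 214 and 185 in WT against 287 and 331 in Pdpn KO, a log2 difference of 0.63 ± 0.14 (limma adjusted p = 1.00). Among 14 other sterol synthesis and SREBP control genes the median difference was 0.05, and the brightest were Mbtps1, the protease that first cleaves SREBPs, at -0.07 ± 0.13, and Ufd1, a cofactor in the breakdown of endoplasmic reticulum proteins, at 0.19 ± 0.12.

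The median was 0.02 among 25 other fatty acid genes, with the enoyl reductase Tecr at 0.03 ± 0.11 and the desaturase relative Fads3 at 0.02 ± 0.13. For 12 genes of sterol export, storage and the liver X receptors, the median was 0.07, with the oxysterol-binding protein Osbp at 0.01 ± 0.12. The lysosomal sterol carrier Npc2 read 1959 and 1760 in WT against 2016 and 1698 in Pdpn KO. In this list replicate 2 was lower than replicate 1 in both genotypes for 11 of the 12 genes, the same direction as in the genes of synthesis. The count was 9 of 14 for the other sterol genes and 9 of 25 for the other fatty acid genes. Over all genes the share was 32.4%, and among the brighter 50% of genes 51.0%. The count for the other fatty acid genes was thus near the share of all genes.

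**Figure D4:**
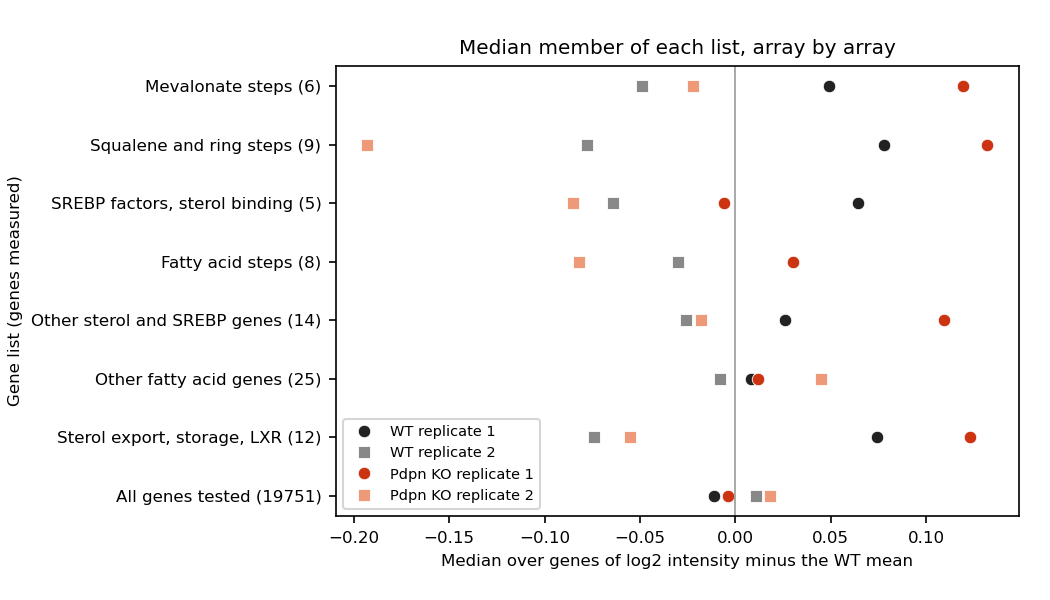
Median over the genes of each list of the log2 intensity minus the WT mean, for each of the 4 arrays; numbers in brackets are genes measured. For the squalene and ring genes the Pdpn KO arrays lie at 0.13 and -0.19, whereas the medians of all genes lie within 0.02 of 0.

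Fat cells and liver make much fatty acid and sterol, and their markers were read beside the synthesis genes. Fat cell markers, 9 of 10 measured, had summed intensities of 2740 and 2851 in WT against 3069 and 3171 in Pdpn KO, higher in both Pdpn KO arrays, though 5 of the 9 had a higher mean and 4 a lower one. The higher sums rested mostly on a pair of genes named after their values were seen. Of these Fabp4 read 224 and 235 in WT against 273 and 362 in Pdpn KO, and Pparg 944 and 1139 in WT against 1298 and 1313 in Pdpn KO, each with a limma adjusted p of 1.00, while Adipoq, which encodes the fat cell hormone adiponectin, had a log2 difference of -0.20 and Retn, which encodes resistin, one of -0.16. Embryonic liver markers, 6 of 7 measured, summed to 813 and 878 in WT against 766 and 814 in Pdpn KO. RMA gives no detection call, so no marker could be called absent. Markers of blood cells, 7 of 8 measured, summed to 1206 and 988 in WT against 1289 and 1046 in Pdpn KO, those of blood endothelium, 8 of 8, to 2040 and 1799 in WT against 1740 and 1674 in Pdpn KO, and those of epithelium, 6 of 6, to 2588 and 2307 in WT against 3010 and 2721 in Pdpn KO. Single genes set several of these differences. In epithelium 5 of the 6 genes had a lower mean in Pdpn KO, and the higher sum came from Krt19, which read 1032 and 675 in WT against 1637 and 1196 in Pdpn KO, with a limma adjusted p of 1.00. In endothelium 5 of the 8 had a higher mean in Pdpn KO, but Emcn read 459 and 351 in WT against 197 and 177 in Pdpn KO, with a limma adjusted p of 0.57. The blood cell, endothelial and epithelial sums were lower in replicate 2 of each genotype, but this held for 1 of 7, 2 of 8 and 1 of 6 of their genes, among them Cd68, which read 600 and 377 in WT against 672 and 394 in Pdpn KO. The part of these markers in the order of the sterol genes was not tested.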

How the data were processed

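RNA of 4 fibroblast cultures, 2 per genotype, was read on 1-colour arrays. The authors deposited a linear intensity for each probe set. Per the submitters' processing notes these come from RMA, which corrects background, normalises arrays together and summarises probes. Its version and settings, and a genome build, are not given here in any source used. There were 24679 probe sets in each of 2 deposited tables, which differed by at most 0.005. Of these, 21354 had 1 gene symbol in the platform annotation, 1275 several and 2050 were not listed there; the brightest set per symbol gave 19751 genes. Log2 was taken without a pseudocount.

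Genotypes were compared with limma 3.58.1 in R 4.3.3 (2-group fit with eBayes, two-sided p-values adjusted by Benjamini-Hochberg across the 19751 genes, threshold 0.05), and the ± after a difference is its standard error. With 2 arrays against 2, no exact permutation test can pass 0.05. The fit was tested on simulated data. The number of arrays limits the precision, and RMA compresses differences of dim genes. The members and lists were chosen with earlier results of these data known. All measured members are named; of the other pathway lists, those with an unadjusted p under 0.05 and the 2 brightest of each. Alternatives were another table, scaling, filter, prior, probe set rule, pseudocount or threshold, a replicate block and leaving out each array. The other table held nearly the same values, and a filter does not alter the difference of a gene it keeps. These alternatives could thus hardly move a member's difference. Protein sequences were not used here. Figures were drawn with matplotlib 3.10.9.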

Additional observations from a re-analysis of the deposited data

How the results depend on the processing

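Under the alternatives tried, 0 of the 28 genes passed an adjusted p of 0.05 in limma, nor did any at an adjusted p of 0.1 with all arrays. At an unadjusted p under 0.05 the count was 0, and with 1 array left out it ran from 0 to 1, the 1 being Hsd17b7 without Pdpn KO replicate 1, where the lone Pdpn KO array is assumed to vary like WT. The median member difference, -0.02, ran from -0.10 to 0.06 with 1 array left out and was -0.05 with median centring and with quantile normalization. The differences of 21 of the 28 genes changed sign under at least 1 setting. Genes called in the whole table were 2 as reported, 1 without the dimmer 50% of genes, which tests fewer genes, and 9 with an intensity trend and robust prior. With 1 array left out they ran from 5 without WT replicate 1 through 50 without Pdpn KO replicate 2 and 53 without WT replicate 2 to 100 without Pdpn KO replicate 1; the cause was not tested. In the fit with a replicate block, 34 genes passed in all and 0 of the 28, and 0 had an unadjusted p under 0.05. The block treats arrays with equal numbers as pairs, although no pairing is known from the design. Over all genes the replicate differences of both genotypes correlated with r = 0.58, and the cause was not tested. The counts by replicate number under other scalings were chosen after seeing the data.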
